A study of Glycine max with 36 samples.

Results

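The step from ZT16 to ZT20 is the 4 h from the onset to the middle of the subjective night in soybean leaves. It was measured in 12 of the 36 libraries of the series, chosen by their labels. ZT20 and ZT44 were set against ZT16 and ZT40, with 3 libraries at each of these 4 time points. ZT44 and ZT40 repeat ZT20 and ZT16 after 24 h. The table lists 47011 gene identifiers. Those that averaged 1 FPKM or more across all 36 columns, 27449 in number, were tested. FPKM scales the fragments of a gene by its length and by the mapped total of the library.

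All libraries came from unifoliolate leaves, the first simple leaves above the cotyledons, of Glycine max cultivar Williams 82. Seedlings had 9 days of 16 h light and 8 h dark at 28 °C and then constant conditions, and sampling began at an age of 11 days. Zeitgeber time (ZT) counts hours from lights-on in the preceding light cycle, in which lights went off at ZT16. Each library held a pool of leaves from 3 seedlings, so p-values measure the spread between such pools. The labels do not say whether the constant conditions were light or dark.

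In plants the circadian clock is a network of transcription factors that repress each other in turn. In Arabidopsis, evening regulators such as TOC1 and the evening complex are active around dusk and in the early night. Transcripts of the MYB factors CCA1 and LHY build up late in the night, and many genes of photosynthesis are prepared before dawn. In that species evening transcripts thus give way to morning transcripts over the night, also without a change of light. In this table the genes could not be read by these roles. The files give identifiers only, and 0 of the 47011 matched the 59048 genes of the reference table. No list of clock or leaf marker genes was therefore counted, and the tissue label was not checked against markers. At most 2 identifiers are printed in each direction of a comparison.

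Libraries of the second day varied more than those of the first. The median gene had an SD between replicates of 0.14 (log2) at ZT44, 0.22 at ZT40, 0.10 at ZT20 and 0.12 at ZT16. Pearson's r across genes was 0.994 between ZT44 replicates 2 and 3, and 0.969 and 0.972 between each of them and replicate 1. All pairs at ZT40 lay between 0.947 and 0.969. Earlier work on these data set ZT40 replicate 2 and ZT44 replicates 2 and 3 apart, and results that rest on them are given with and without them. Without them ZT44 has 1 library and ZT40 has 2, so that single ZT44 library is assumed to vary like the other groups, and few calls can be made on the second day. The summed FPKM of a library lay between 651475 and 749531 in the series. Absolute depth is unknown, so no counting interval is given.

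The level of the median tested gene fell at this step, but abundant genes did not share the fall. Genes that averaged 100 FPKM or more had a median change of 0.05 (log2) as deposited. It was -0.22 for genes between 10 and 100 FPKM and -0.24 between 1 and 10. The median tested gene stood at 2.73 ± 0.02 (log2, SD, n = 3) at ZT20 and 2.81 ± 0.08 at ZT44, against 3.00 ± 0.04 at ZT16 and 3.02 ± 0.12 at ZT40. The mean difference was -0.24, and -0.21 within the second and -0.27 within the first day (exact permutation test within days, two-sided p = 0.01, where the smallest possible p was 0.005). On the first day the libraries of the 2 times did not overlap. On the second day ZT44 replicate 1 was at 2.91, just above ZT40 replicate 2 at 2.90.

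**Figure D1:**
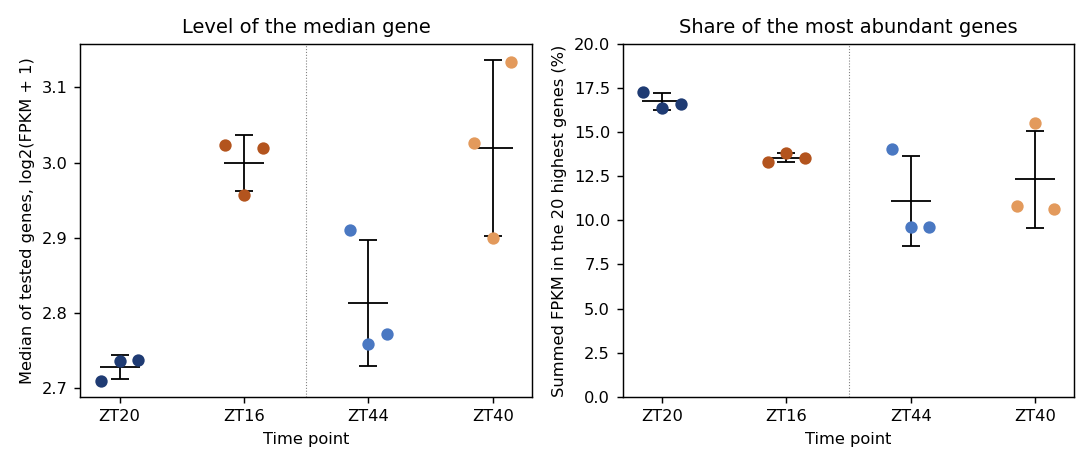
Left, the median of the 27449 tested genes on the log2(FPKM + 1) scale in each library; right, the percent of the summed FPKM held by the 20 genes highest on average. Points are libraries in the order of replicates 1 to 3, bars are mean ± SD (n = 3) and the dotted line divides the days. The median lay between 2.71 and 2.74 at ZT20 and between 2.96 and 3.02 at ZT16. The right panel shows ZT44 replicates 2 and 3 at 9.64% and 9.62%.

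The most abundant transcripts took a larger share of the libraries at the later time once 2 odd identifiers were set aside. The 20 genes highest on average held 16.7% ± 0.47 of the summed FPKM at ZT20 and 11.1% ± 2.55 at ZT44, against 13.6% ± 0.26 at ZT16 and 12.3% ± 2.76 at ZT40 (SD, n = 3). This difference of 0.98 percentage points was within the spread (exact permutation test within days, two-sided p = 0.41). Leaving out ZT44 replicate 1 gave 0.24, ZT40 replicate 3 gave 0.56, ZT40 replicate 1 gave 0.60 and ZT40 replicate 2 gave 1.77 percentage points. Without the 3 libraries set apart it was 3.25 percentage points, where the second day rests on 1 ZT44 library and 2 ZT40 libraries. GLYMA19G06370 and GLYMA19G06340, singled out after their values were seen, were listed at 0 in ZT44 replicates 2 and 3. GLYMA19G06370 was at 24210 FPKM in ZT44 replicate 1 and at 18178 to 35467 in the ZT40 libraries. GLYMA19G06340 was at 20118 and at 14754 to 29807 in the same libraries. The next shares leave these 2 identifiers out of the 20 genes but keep them in the summed FPKM. In ZT44 replicates 2 and 3 that sum holds nothing from them, so the base of the share differs there. The share was 9.38% ± 0.10 at ZT20 and 8.88% ± 1.30 at ZT44, against 6.33% ± 0.29 at ZT16 and 5.86% ± 0.90 at ZT40. It was then higher by 3.04 percentage points (exact permutation test, p = 0.005, the smallest possible). Of the 20 genes, 8 rose and 0 fell on both scales described next, on which 9.48% of all tested genes rose and 15.2% fell.

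Because the median gene itself moved, each gene was tested on 2 scales, with FPKM as deposited and after median-ratio rescaling. Rescaling gave each library 1 divisor, the median over genes of its FPKM relative to the geometric mean over all libraries. The test was limma's moderated test on log2(FPKM + 1) with day as covariate over the 12 libraries, and a gene was called at a Benjamini-Hochberg adjusted p under 0.05. As deposited, 2603 genes rose (9.48% of those tested) and 11772 fell (42.9%). After rescaling 4567 rose (16.6%) and 4163 fell (15.2%). Falls were thus 81.9% of the calls as deposited and 47.7% after rescaling. The median log2 change of all tested genes was -0.23 as deposited and -0.02 after rescaling.

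The scale decided whether many changes were called, and turned none of the calls round. All 2603 rises as deposited also passed after rescaling, and all 4163 falls after rescaling also passed as deposited. These are the calls on both scales (9.48% and 15.2% of the tested genes). The other 7609 falls as deposited were not called after rescaling, and 1964 rises after rescaling were not called as deposited. FPKM are shares of a library, and in bulk leaves fewer cells of a type and less RNA per cell cannot be told apart.

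At least 2-fold changes on both scales were far fewer. They comprised 552 genes that rose (2.01%) and 419 that fell (1.53%). The median size of the rises was 1.40 (log2, quartiles 1.15 and 1.75) as deposited and 1.62 after rescaling. The falls had a median size of 1.51 (quartiles 1.36 and 1.85) as deposited and 1.27 after rescaling. A change of at least 4-fold on both scales was called for 75 rises and 60 falls, and of at least 8-fold for 6 rises and 9 falls. No gene (0) was listed at 0 in all 6 libraries of one time and at 1 FPKM or more in all 6 of the other, in either direction.

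Many genes moved little in these 4 h. For 14247 genes (51.9%) the 95% interval of the change in log2(FPKM + 1) lay within 1.5-fold on both scales. The remaining genes were not shown to move more than that, since a wide interval also puts a gene outside this count. The pseudocount of 1 shrinks the changes of low genes, which favours their entry, and the count was not repeated with another pseudocount.

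Rises were more frequent among abundant transcripts. Of the 795 genes that averaged 100 FPKM or more in the series, 259 (32.6%) rose and 69 (8.68%) fell on both scales. Of the 8612 genes between 10 and 100 FPKM, 1071 (12.4%) rose and 1283 (14.9%) fell. In the 18042 genes between 1 and 10 FPKM, 1273 (7.06%) rose and 2811 (15.6%) fell. Changes of at least 2-fold were more frequent among abundant transcripts in both directions. From the highest class to the lowest, such rises were 85 (10.7%), 293 (3.40%) and 174 (0.964%) of the genes. Such falls were 31 (3.90%), 217 (2.52%) and 171 (0.948%), the reverse of the order for falls of any size. The pseudocount of 1 shrinks the changes of low genes, and the difference between the classes was not tested.

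The largest rises started from low levels. GLYMA12G06820 was at 111, 134 and 123 FPKM in the ZT20 libraries and at 63.3, 74.4 and 70.2 at ZT44, against 5.78, 9.95 and 3.94 at ZT16 and 3.18, 3.90 and 2.83 at ZT40. Every library of the later time was above every one of the earlier time on each day. The fitted change was 4.07 ± 0.15 (log2, SE, limma adjusted p = 8.5e-09), and 4.27 after rescaling. GLYMA09G39890 was at 32.2, 45.7 and 37.8 FPKM at ZT20 and at 38.6, 39.2 and 40.2 at ZT44, against 1.78, 5.0 and 1.01 at ZT16 and 2.13, 3.61 and 4.48 at ZT40. The libraries did not overlap on either day, and those of ZT44 lay within the range of ZT20. Its change was 3.42 ± 0.23 (SE, limma adjusted p = 2.2e-07), and 3.59 after rescaling.

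The largest falls belonged to transcripts that had peaked before ZT16. GLYMA06G12890 was at 1.03, 1.35 and 1.87 FPKM at ZT20 and at 8.95, 7.92 and 7.27 at ZT44, against 60.5, 45.1 and 52.5 at ZT16 and 132, 124 and 88.7 at ZT40. It changed by -4.07 ± 0.16 (SE, limma adjusted p = 9.7e-09), and by -3.82 after rescaling. The libraries did not overlap on either day, and those of the second day were above those of the first at the same time of day. GLYMA14G02970 was at 1.74, 1.68 and 1.70 FPKM at ZT20 and at 12.3, 11.4 and 11.2 at ZT44, against 51.5, 41.5 and 40.1 at ZT16 and 152, 168 and 91.2 at ZT40. The groups were again apart on each day, with the second day higher. Its change was -3.73 ± 0.16 (SE, limma adjusted p = 1.3e-08), and -3.48 after rescaling. These 4 identifiers had the largest changes of 1068 rises and 1488 falls called on both scales, without overlap on either day and reaching 10 FPKM. Of all tested genes, called or not, 6.05% were higher and 20.8% lower without overlap on either day.

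**Figure D2:**
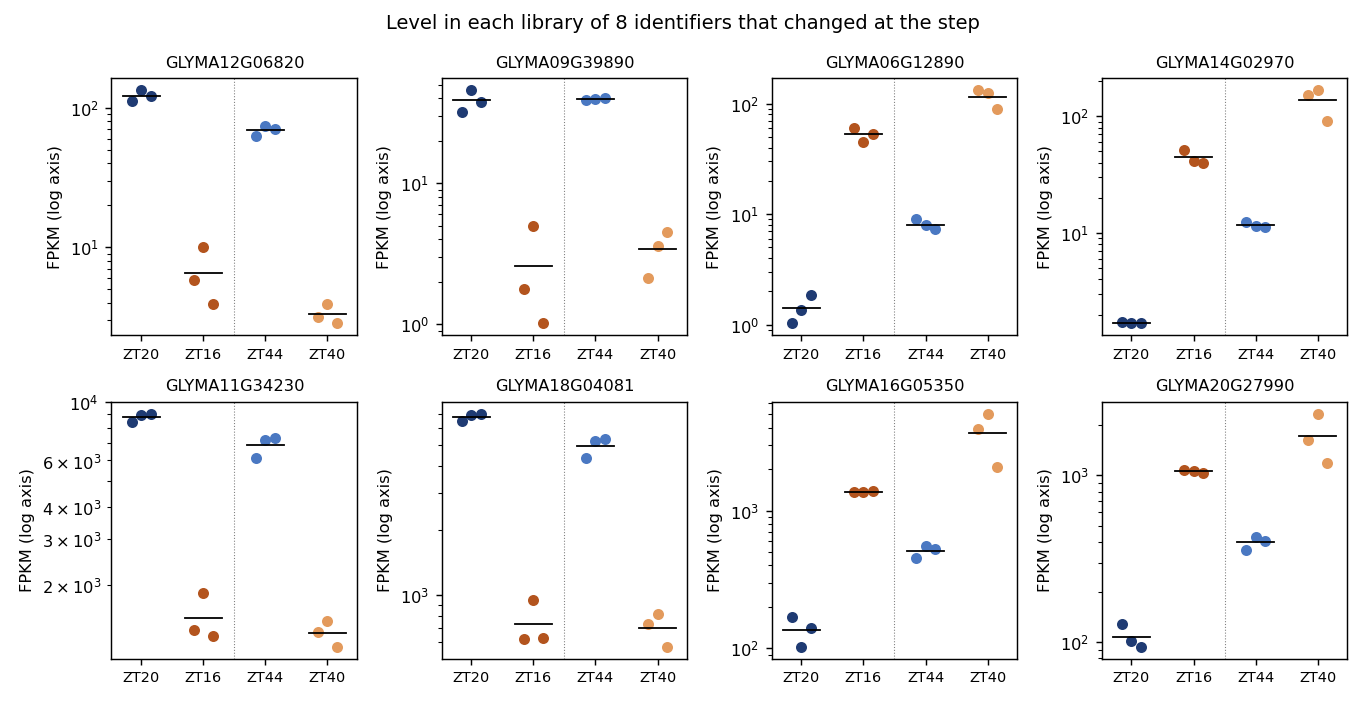
FPKM in each library (log axis) of the 2 largest rises and 2 largest falls by fold (top row) and by FPKM gained or lost (bottom row). Points are libraries in the order of replicates 1 to 3, black lines are means of 3, and the dotted line divides the days. In all 8 panels the libraries of the later time lie wholly above or wholly below those of the earlier time on each day.

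The 4 identifiers swung over the rest of the day as well. GLYMA12G06820 had its lowest means at ZT12 (1.14 ± 0.04 FPKM) and ZT36 (2.07 ± 0.48) and its highest at ZT0 (132 ± 10.4) and ZT24 (179 ± 9.29; SD, n = 3). GLYMA09G39890 was at 51.6 ± 2.22 FPKM at ZT24, and its lowest mean was 1.00 ± 0.34 at ZT12. GLYMA06G12890 was highest at ZT12 (263 ± 24.3) and ZT36 (228 ± 12.3), and at 0.78 ± 0.41 FPKM at ZT24. GLYMA14G02970 was highest at ZT12 (239 ± 27.3) and ZT36 (265 ± 37.5), and at 1.59 ± 0.38 at ZT24. Both falling identifiers thus had their highest means before the step on each day.

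In amount of transcript the gains were concentrated in few genes. The genes that rose on both scales gained 91520 FPKM in sum, and 38 of them held 50% of that. Genes that fell on both scales lost 42252 FPKM, and 190 of them held 50%. These sums are of FPKM as deposited and need not balance, since the falls called only as deposited are left out. GLYMA11G34230 gained the most, 6440 FPKM in the mean of the 2 days. It was at 8450, 8949 and 9049 FPKM at ZT20 and at 6137, 7204 and 7298 at ZT44, against 1346, 1873 and 1282 at ZT16 and 1323, 1465 and 1161 at ZT40. The change was 2.48 ± 0.13 (log2, SE, limma adjusted p = 3.4e-08), and 2.74 after rescaling.

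GLYMA18G04081 gained 5178 FPKM. It was at 6459, 6941 and 7014 FPKM at ZT20 and at 4368, 5252 and 5340 at ZT44, against 620, 946 and 628 at ZT16 and 728, 813 and 570 at ZT40. It rose by 3.04 ± 0.15 (log2, SE, limma adjusted p = 2.4e-08), and by 3.30 after rescaling. Both identifiers had lower means at ZT12, at 161 ± 21.2 and 262 ± 45.3 FPKM (SD, n = 3), and higher means at ZT24, at 10979 ± 533 and 9896 ± 765. None of their libraries overlapped between the times of the step on either day.

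GLYMA16G05350 lost the most, 2198 FPKM. It was at 168, 102 and 140 FPKM at ZT20 and at 450, 553 and 526 at ZT44, against 1361, 1356 and 1382 at ZT16 and 3904, 5045 and 2082 at ZT40. Its change was -3.05 ± 0.20 (log2, SE, limma adjusted p = 2.2e-07), and -2.80 after rescaling. ZT40 varied most here, with replicate 3 lowest, and was still above every ZT44 library. GLYMA20G27990 lost 1134 FPKM. It was at 129, 102 and 93.6 FPKM at ZT20 and at 357, 430 and 405 at ZT44, against 1078, 1063 and 1031 at ZT16 and 1620, 2341 and 1188 at ZT40. Here too the times did not overlap on either day. It fell by 2.67 ± 0.22 (log2, SE, limma adjusted p = 1.4e-06), and by 2.42 after rescaling. Both identifiers had their highest means at ZT12 and ZT36.

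Genes called at least 2-fold changed on 1 day mostly moved in the same direction on the other. Each day was also fitted on its own 6 libraries, so that the days share none. Across the 27449 genes the log2 changes of the 2 days had a Pearson's r of 0.739 as deposited and 0.743 after rescaling, which describes genes, not replicates. Of the 696 genes called at least 2-fold higher on the first day, 685 (98.4%) were also higher on the second, against 26.8% of all tested genes. Of the 1306 called at least 2-fold lower on the first day, 1243 (95.2%) were lower on the second, against 73.2% of all genes. After rescaling these shares were 1110 of 1126 rises (98.6%, against 48.8%) and 625 of 648 falls (96.5%, against 51.2%). Without the 3 libraries set apart, the shares as deposited were 98.6% of rises and 96.2% of falls, and with 1 ZT44 library left, calls of the second day (1 rise and 0 falls of that size) were too few to read on the first.

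Calls of the second day were read on the first in the same way. As deposited, 449 of 455 rises of at least 2-fold (98.7%) and 504 of 508 falls (99.2%) had the same sign on the first day. Of all tested genes 23.2% were higher and 76.75% lower on that day. Calls of the opposite sign were rare. Among the 696 rises and 1306 falls of the first day, 1 and 2 genes were called the other way on the second day. A call the same way was made for 529 (76.0%) and 689 (52.8%) of them. Of all tested genes 3.68% were called as rises and 6.57% as falls on the second day. The number of calls differed more than their direction: 1009 genes rose and 1804 fell on the second day alone, against 3000 and 13307 on the first. Of these first-day calls of any size, 922 rises (30.7%) and 1676 falls (12.6%) were also called on the second day. The replicate SD of the median gene, given above, was larger on the second day, and its part in these counts was not tested.

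**Figure D3:**
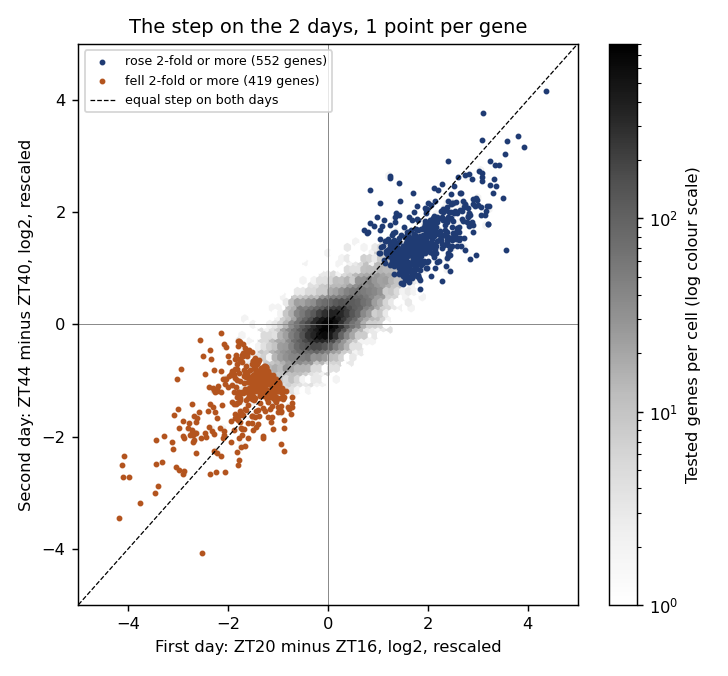
Each tested gene's log2 change after median-ratio rescaling on the second day (ZT44 minus ZT40, vertical axis) against the first (ZT20 minus ZT16, horizontal axis), with grey cells for all 27449 genes. Blue points are the 552 genes that rose and orange points the 419 that fell at least 2-fold on both scales, and the dashed line marks equal steps. All blue and orange points lie in the quadrants of like sign.

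All 552 rises and all 419 falls of at least 2-fold on both scales had their sign on each day and scale, a number that the averaging over the days favours. For 513 of the rises and 387 of the falls the libraries of the 2 times did not overlap on either day. Over all tested genes 6.05% were that clearly higher and 20.8% that clearly lower. The choice of genes by a called change in the same libraries favours such a separation, so the excess is not read as a result. The step of these genes was mostly smaller on the second day, with a median rise of 1.27 (log2) at ZT44 over ZT40 and 1.55 at ZT20 over ZT16. It was smaller on the second day for 456 of the 552 rises, and for 468 after rescaling. The falls had medians of -1.35 on the second and -1.76 on the first day, and 331 of the 419 were smaller on the second day (318 after rescaling). The choice used both days. A difference between the days passed a test of its own for 18 rises (3.26%) and 40 falls (9.55%) as deposited, where 1.11% of all tested genes passed. After rescaling it passed for 15 rises (2.72%) and 12 falls (2.86%), against 0.412% of all tested genes. These shares were above those of all genes, but the genes were chosen by a called step in the same libraries, so the excess is not read as a result. Most of the 2-fold genes did not pass.

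The groups differed between the days mainly in where the step ended. Relative to its own mean over the 12 time points, the median of the 552 rising genes was at 0.91 (log2) at ZT20 and 0.65 at ZT44, against -0.71 at ZT16 and -0.75 at ZT40. By library it ran from 0.83 to 0.97 at ZT20, from 0.64 to 0.68 at ZT44, from -0.84 to -0.53 at ZT16 and from -0.81 to -0.70 at ZT40. The median of the 419 falling genes was at -1.20 at ZT20 and -0.69 at ZT44, against 0.65 at ZT16 and 0.80 at ZT40. By library it ran from -1.24 to -1.12 at ZT20, from -0.68 to -0.62 at ZT44, from 0.56 to 0.75 at ZT16 and from 0.75 to 0.83 at ZT40. Both groups thus stood less far from their means at ZT44 than at ZT20 in all 3 libraries. After rescaling the medians were 0.55 at ZT44 and 0.93 at ZT20 for the rising genes, and -0.73 and -1.16 for the falling genes. No test is given, since the genes were chosen on these libraries.

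Over the day the step was part of a longer passage. After rescaling, the lowest of the 6 time points of the first day was ZT12 for 428 of the 552 rising genes (77.5%) and ZT16 for 86 (15.6%). On the second day it was ZT36 for 358 (64.9%) and ZT40 for 166 (30.1%). Among all tested genes 19.3% were lowest at ZT12, 15.0% at ZT16, 16.3% at ZT36 and 11.8% at ZT40. Most of the rising genes had thus left their low before the step began. Their highest time point on the first day was ZT0 for 254 genes (46.0%), ZT20 for 163 (29.5%) and ZT4 for 129 (23.4%), against 17.8%, 14.8% and 18.5% of all tested genes. On the second day it was ZT24 for 356 (64.5%), ZT28 for 130 (23.6%) and ZT44 for 59 (10.7%), against 19.6%, 16.0% and 19.5%. The share highest at ZT44 was thus below that of all genes, although the choice of genes by a rise to ZT20 and ZT44 favours these times.

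The falling genes showed the reverse course. Their highest time point was ZT12 for 256 of 419 genes (61.1%), ZT8 for 118 (28.2%) and ZT16 for 39 (9.31%) on the first day, against 17.2%, 15.2% and 16.6% of all tested genes. On the second day it was ZT36 for 262 (62.5%), ZT32 for 90 (21.5%) and ZT40 for 63 (15.0%), against 16.4%, 15.6% and 12.9%. The lowest was ZT0 for 189 (45.1%) and ZT20 for 180 (43.0%) on the first day, against 17.8% and 16.2% of all tested genes. On the second day it was ZT24 for 244 (58.2%) and ZT44 for 109 (26.01%), against 16.9% and 22.4%. The step made up a median of 48.3% of the range between a gene's highest and lowest time point mean on the second and 54.4% on the first day. For the rising genes it was 52.8% and 57.2%, and for all tested genes 33.9% and 40.1%. The choice of genes by this step raises these shares. It also favours ZT20 and ZT44 as the lowest time points of the falling genes.

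**Figure D4:**
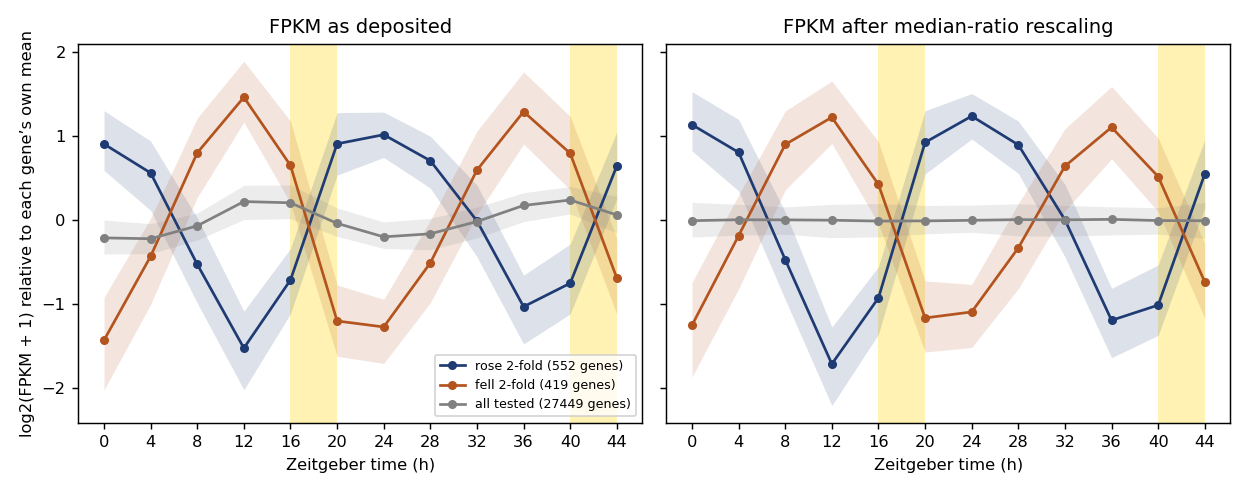
Median (points and lines) and quartiles (shading) over genes of log2(FPKM + 1) relative to each gene's own mean of the 12 time points, as deposited (left) and after rescaling (right). Blue marks the 552 genes that rose and orange the 419 that fell at least 2-fold on both scales, grey all 27449 tested genes, and yellow bands the step. The rising genes are lowest at ZT12 and ZT36 and the falling genes highest there.

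A step that differed between the days was called for 304 genes as deposited (1.11%), by limma's test of the interaction of day and time. The difference was more positive on the second day for 245 and more negative for 59. After rescaling 113 genes were called, with 65 and 48 in these directions, and 107 were called on both scales with the same sign. Of these 107, 43 had steps of opposite sign on the 2 days. The count of 304 as deposited depended on single libraries. It was 2268 without ZT40 replicate 3, 354 without ZT40 replicate 2 and 192 without ZT44 replicate 1. Leaving out any of the other 9 libraries gave from 7 to 25 genes, the lowest without ZT20 replicate 3. Without the 3 libraries set apart 2 genes were called, of which 0 were among the 304. That fit rests on 1 ZT44 library, with the spread taken from the other groups, and its low count does not show that the differences were absent.

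The identifiers with the largest differences moved in opposite directions on the 2 days in their means. GLYMA05G34810 was at 19.7, 24.0 and 24.3 FPKM at ZT44, against 66.9, 50.3 and 65.2 at ZT40, while on the first day it was at 20.2, 13.2 and 12.8 at ZT20, against 7.33, 4.73 and 3.29 at ZT16. The libraries of the 2 times did not overlap on either day, and the order was turned round between the days. The difference of the steps was -2.83 ± 0.32 (log2, SE, limma adjusted p = 0.0077). It was -3.14 without the 3 libraries set apart, with a limma adjusted p of 0.096 from the fewer libraries. GLYMA08G04880 was at 43.6, 49.2 and 48.8 FPKM at ZT44, against 209, 224 and 180 at ZT40, and on the first day at 34.4, 18.8 and 16.9 at ZT20, against 27.9, 14.0 and 11.7 at ZT16. The first day's libraries overlapped and those of the second did not. The difference was -2.48 ± 0.41 (SE, limma adjusted p = 0.031). Both identifiers had means below 4 FPKM from ZT0 to ZT12 and their highest mean at ZT36.

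GLYMA17G05230 was at 11.7, 18.1 and 14.8 FPKM at ZT44, against 4.15, 4.11 and 12.9 at ZT40, and on the first day at 8.31, 11.3 and 7.05 at ZT20, against 26.3, 21.3 and 23.6 at ZT16. The second day overlapped through ZT40 replicate 3. Its difference was 2.47 ± 0.46 (SE, limma adjusted p = 0.037). GLYMA20G33880 was at 381, 427 and 435 FPKM at ZT44, against 235, 266 and 315 at ZT40, and on the first day at 58.3, 39.2 and 70.2 at ZT20, against 174, 120 and 114 at ZT16. The difference was 1.89 ± 0.30 (SE, limma adjusted p = 0.029), with no overlap on either day. Without the 3 libraries set apart, and so with 1 ZT44 library, the difference was -2.52 for GLYMA08G04880, 1.93 for GLYMA17G05230 and 1.76 for GLYMA20G33880. The signs were the same, and the limma adjusted p-values were 0.25, 0.28 and 0.25.

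**Figure D5:**
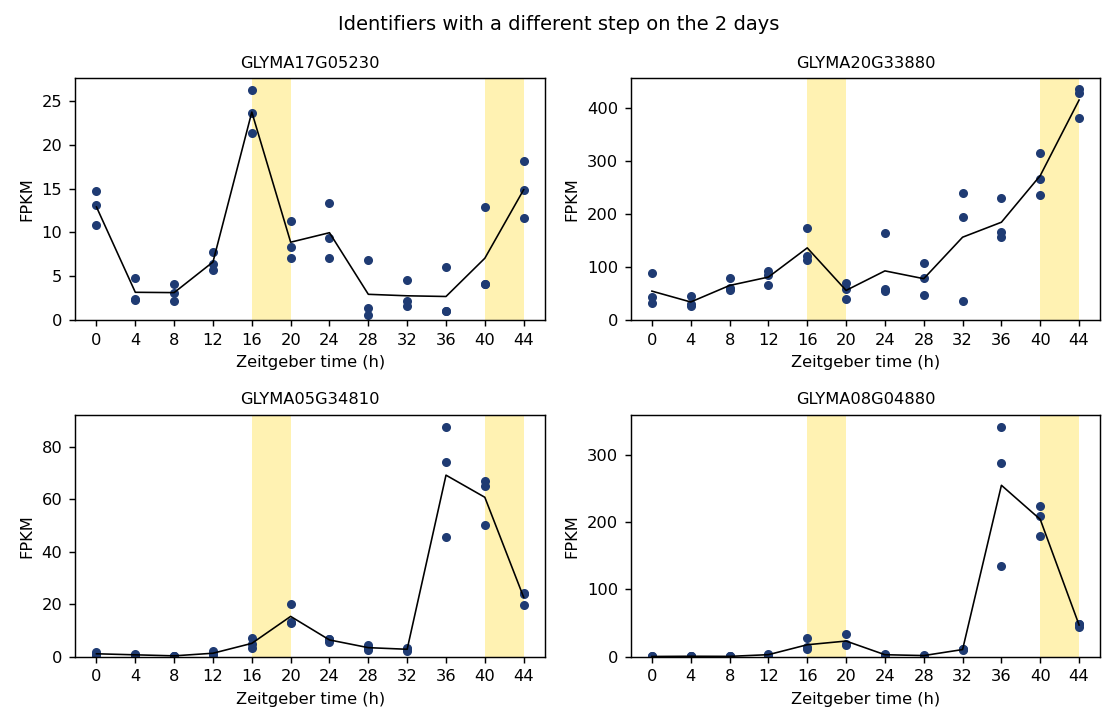
FPKM of the 4 identifiers with the largest differences of the step between the days, against zeitgeber time in h. Points are libraries, lines join the means of 3 and yellow bands mark the step on each day. GLYMA05G34810 and GLYMA08G04880 reach their highest means at ZT36, and GLYMA20G33880 its highest at ZT44.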

How the data were processed

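RNA-seq libraries were made from unifoliolate leaves of 3 pooled seedlings each, at 12 time points with 3 libraries per time point. The authors deposited 1 table of FPKM values, with 36 columns that match the sample titles. The submitters' processing notes name TopHat2 2.1.0 and HTSeq 0.6.0 without their roles. Which tool computed FPKM is not given in the sources used here, nor are build and annotation. Read sharing between near-identical copies of genes, frequent in this polyploid genome, could not be assessed. Tests were run on log2(FPKM + 1) with limma 3.58.1 in R 4.3.3, using an intensity-dependent prior variance. P-values were adjusted by Benjamini-Hochberg over the 27449 genes that averaged 1 FPKM or more. No count of reads could be tested, and depth is unknown. Fold changes are on that scale, which understates those of low genes. The fits used the 12 libraries of the step with day as covariate, the 6 of each day alone, or 4 group means for the difference between the days. Median-ratio rescaling used genes above 0 in all 36 libraries. A separate limma fit of the same form was run on simulated data. In these, 200 genes were given a step and as many others a difference between the days. The fits and the rescaling reported here were not themselves run on those data.

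Identifiers were named by rule. For the step these were the 2 largest rises and 2 largest falls called on both scales, with no overlap on either day and at least 10 FPKM at the higher time, by fold and by FPKM. For the difference between the days they were the 2 largest in each direction called on both scales, with at least 10 FPKM at 1 or more time points. The step, the rules and the alternatives were chosen with earlier results of these data known. Alternatives covered scaling, pseudocount, filters, design and left-out libraries. The labels call the 3 libraries of a time point biological repeats but give no batch, date or shared origin for their numbers. For that reason the main fits did not pair libraries by number. Deviations of same-numbered libraries from their time point means had a correlation over 0.1 in 8 of 18 pairs. The same number gave the highest correlation in 10 of them. Whether the numbers share an origin was not tested, and counts with a replicate block are given below.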

Additional observations from a re-analysis of the deposited data

Results flagged for a closer look

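The difference of the step between the days, tested by the interaction of day and time in limma, is listed here because the days differed. It was called for 304 genes as deposited. The named identifiers were GLYMA05G34810 with -2.83 (log2, second minus first day), GLYMA08G04880 with -2.48, GLYMA17G05230 with 2.47 and GLYMA20G33880 with 1.89. With 1 library left out, GLYMA05G34810 kept an adjusted p under 0.05 in all 12 fits (highest 0.032). GLYMA17G05230 and GLYMA20G33880 kept it only without ZT40 replicate 2, ZT40 replicate 3 or ZT44 replicate 1, and GLYMA08G04880 only without these or ZT16 replicate 1. In the other fits their adjusted p-values reached 0.12, 0.11 and 0.11. Groups of 3 libraries are too small for a test of single outlying libraries.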

How the results depend on the processing

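Signs were the same under every alternative run for the 12 named identifiers, and the 8 named for the step kept their calls. Of the named differences between the days, 3 lost theirs without the filter, GLYMA20G33880 also in the fit of all 36 libraries, and all 4 without the 3 libraries set apart, where ZT44 has 1 library. With median-ratio rescaling 4567 genes rose and 4163 fell, 846 and 419 at least 2-fold, 113 differed between the days, and 96.45% of the first day's 2-fold falls had that sign on the second. Quantile normalization gave 4386 rises, 4509 falls and 456 falls of at least 2-fold. A pseudocount of 0.1 gave 1294 falls of at least 2-fold as deposited (750 with 1) and 710 on both scales. At a mean of 5 FPKM or more, with fewer genes tested, 7046 fell as deposited and 2379 after rescaling. The 100 highest genes held 4.19 percentage points more at the later time (exact permutation p = 0.035), the 20 highest 3.25 without the 3 libraries set apart, and 3.04 without the 2 identifiers listed at 0, an alternative chosen after seeing the data.

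The count of genes that differed between the days, as deposited and rescaled, was 93 and 51 with no filter, 2072 and 1608 in the fit of all 36 libraries, 2 and 2 without the 3 libraries set apart, and 1559 and 1065 with a covariate for them. As deposited it was 514 at a mean of 5 FPKM or more and 146 with no trend. The causes were not tested. With the replicate block it was 601 and 402, and 2656 rises and 12310 falls were called as deposited. Deviations of same-numbered libraries correlated at -0.298 to 0.603, and the same number gave the highest correlation in 10 of 18 cases.

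With 1 library left out, rises numbered 2315 to 2775 and falls 9778 to 13510 as deposited, and 3930 to 5214 and 3379 to 4778 rescaled. On both scales 520 to 586 rises and 394 to 458 falls were at least 2-fold. Differences between the days numbered 7 to 2268 as deposited and 4 to 1387 rescaled. The shift of the median lay between -0.27 and -0.21, and that of the share of the 20 highest genes between 0.24 and 1.77 percentage points. Depth is unknown, so counting error was not separated from other spread.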
